A study of Mus musculus with 7 samples.

Results

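Mesothelial cells form the single sheet of flat cells that covers the lung surface as the visceral pleura. The 10 genes described here mark these cells: *Msln*, *Muc16*, *Upk3b*, *Upk1b*, *Wt1*, *Bnc1*, *Lrrn4*, *Gpm6a*, *Nkain4* and *Rspo1*. They were chosen by name as known mesothelial genes, and were found by symbol among the 55401 genes of the count table. The genes were compared in lungs of male C57BL/6 mice, 6 to 8 weeks old, all of which had received bleomycin, an antibiotic that injures the lung and leads to fibrosis. The BLM group held 4 mice. The BLM+HBO group held 3 mice that breathed hyperbaric oxygen (HBO, oxygen under raised pressure) at 2.5 ATA for 90 min a day in 14 daily sessions from day 7. The right lung lobes of both groups were taken on day 21, with 1 library per mouse. The sample records place the BLM mice in the chamber without pressurised oxygen, whereas the methods call them untreated, and this was not settled here. No lung without bleomycin was analysed here, so each comparison is between injured lungs with and without HBO.

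Mesothelial cells secrete a lubricating fluid, carry microvilli and a coat of glycoproteins, and rest on a thin layer of connective tissue. They descend from the mesoderm, express keratins as epithelial cells do, and can take on features of fibroblasts after injury. *Wt1* is the classic nuclear marker of this lineage, and mesothelin (encoded by *Msln*) and the mucin Muc16 are its best known surface proteins. In a whole lobe the pleura is a thin layer among many other cells. In such bulk tissue, fewer mesothelial cells and less RNA per mesothelial cell cannot be told apart.

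Promoter sequence was held in RefSeq (GRCm38.p6) for 6 of the 10 genes. The 250 bases before the RefSeq gene start are shown for the 4 of these 6 whose levels differed most between mice, to show how unlike these start regions are in base composition. Capitals mark matches, on either strand, to 3 motifs that were searched: the TATA box TATAAA, the TEAD motif GGAATG, and GNGNGGGNG, a motif shared by WT1 and the EGR factors. Neighbouring matches may overlap, as in *Bnc1* and *Lrrn4*. Compared with the gene start in the count table, the RefSeq start was the same for *Upk3b*, 73 bases upstream for *Muc16*, and 8 and 29 bases inside the gene for *Bnc1* and *Lrrn4*.
Muc16 (chr9:18674604-18674853, minus strand): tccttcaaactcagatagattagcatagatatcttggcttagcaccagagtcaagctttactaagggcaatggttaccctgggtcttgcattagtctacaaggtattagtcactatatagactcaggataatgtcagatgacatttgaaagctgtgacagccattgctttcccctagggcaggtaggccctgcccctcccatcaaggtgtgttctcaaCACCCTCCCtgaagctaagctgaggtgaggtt
Bnc1 (chr7:81992300-81992549, minus strand): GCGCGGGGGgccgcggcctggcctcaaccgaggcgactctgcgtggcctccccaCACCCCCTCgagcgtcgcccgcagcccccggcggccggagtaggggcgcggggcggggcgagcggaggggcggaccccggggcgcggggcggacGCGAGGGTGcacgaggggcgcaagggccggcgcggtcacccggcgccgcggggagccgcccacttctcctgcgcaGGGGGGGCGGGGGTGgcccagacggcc
Lrrn4 (chr2:132880863-132881112, minus strand): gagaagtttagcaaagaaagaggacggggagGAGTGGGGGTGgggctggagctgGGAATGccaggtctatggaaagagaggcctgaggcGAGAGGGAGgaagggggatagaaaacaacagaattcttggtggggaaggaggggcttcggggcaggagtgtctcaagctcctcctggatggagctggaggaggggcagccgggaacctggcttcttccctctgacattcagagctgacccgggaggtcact
Upk3b (chr5:136038246-136038495, plus strand): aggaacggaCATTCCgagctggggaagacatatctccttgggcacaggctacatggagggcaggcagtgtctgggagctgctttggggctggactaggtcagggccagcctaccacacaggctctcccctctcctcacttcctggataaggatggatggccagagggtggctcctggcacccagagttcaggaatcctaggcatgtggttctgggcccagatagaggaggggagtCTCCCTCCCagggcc
*Bnc1* had 39 CpG dinucleotides and 6 WT1 and EGR matches in this window. *Muc16* had 0 CpG dinucleotides and 1 such match, and the median over all promoters was 6 CpG dinucleotides. The TEAD letters were found in *Upk3b*, *Lrrn4* and 1 of the 2 *Gpm6a* start regions, against 12.6% of 32841 promoters of the same length. The RefSeq start of that *Gpm6a* region lay 175409 bases upstream of the gene start in the count table, and the other lay 115 bases upstream. The WT1 and EGR letters were found in *Muc16*, *Upk3b*, *Bnc1*, *Lrrn4* and *Rspo1*, against 35.8% of promoters, and the TATA letters were found only in the other *Gpm6a* start region, against 12.4%. A match is a description of the letters and not of binding.

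All 10 genes were lower on average in BLM+HBO than in BLM, but the size differed widely between genes and between mice. *Wt1* and *Msln* had fold changes that passed the study's thresholds for differentially expressed genes (DEGs), a fold change above 1.5 at an unadjusted *P* limit of 0.05, whereas *Gpm6a*, *Nkain4* and *Rspo1* had fold changes near 1. The median log2 fold change of the 10 genes was -0.48, beside 0.01 for the 17465 genes tested, 48.8% of which were negative. Leaving out BLM+HBO 2 moved the median of the 10 to -1.03, and leaving out BLM+HBO 3 moved it to -0.12. All 10 genes passed the filter on low counts. Of these, 2 were called lower, where 2.89% of all genes tested were called lower and 6.29% were called in either direction, and 0 were called higher, against 3.4%. At the *P* limit alone, 3 genes were lower (*Msln*, *Upk1b* and *Wt1*), against 5.54% of all genes, and 0 were higher, against 5.11%. No gene of the 10 passed an adjusted *P* of 0.05 by edgeR, DESeq2 or limma, and edgeR called 0 genes of the whole table at that level while 1861 (10.7%) passed the unadjusted limit. In none of the 10 genes were the groups separate, beside 8.77% of all genes, with all BLM+HBO mice below all BLM mice in 4.72%.

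**Figure D1:**
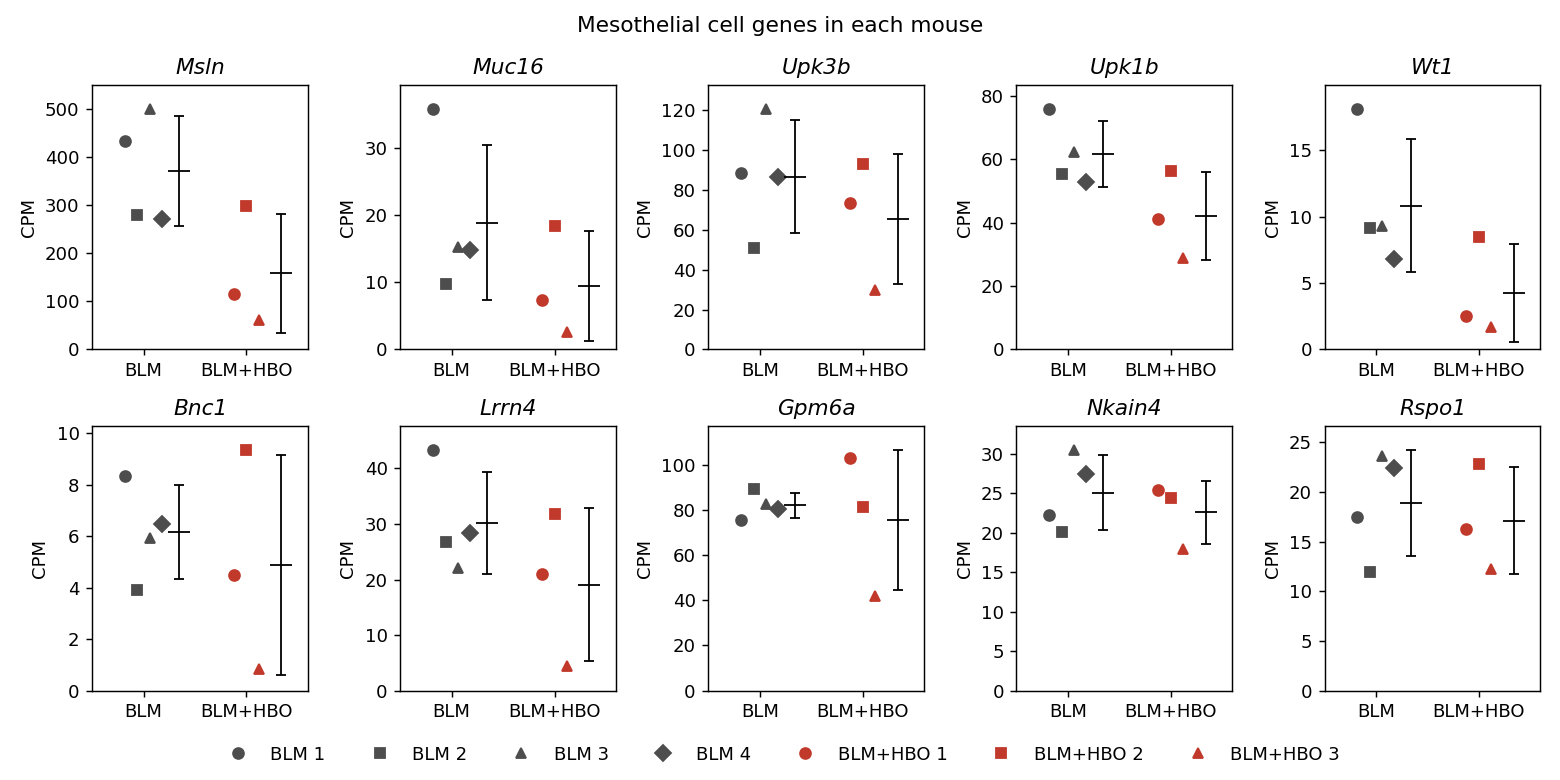
Level of each mesothelial cell gene in each mouse, in CPM (reads of a gene per 1000000 reads of a library, y axes starting at 0), with 1 point per mouse and the mean ± SD of each group in black. BLM+HBO 3 was the lowest mouse for 9 of the 10 genes, and BLM+HBO 2 lay within or above the BLM range for all 10.

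Read counts are given as CPM, that is, reads of a gene per 1000000 reads of its library after TMM scaling, and per kilobase of exon where genes are compared with each other. *Msln* was the most abundant transcript of the set in BLM lungs, at 121 ± 37.1 CPM per kilobase (SD, n = 4). *Upk1b* (29.5 ± 4.95), *Gpm6a* (25.5 ± 1.73), *Upk3b* (24.6 ± 8.05) and *Nkain4* (20.2 ± 3.81) followed. Over the BLM mice, neighbours among these 4 overlapped in range. *Rspo1* (9.73 ± 2.75) and *Lrrn4* (8.11 ± 2.47) overlapped with each other and lay below *Nkain4* in 4 of 4 mice. *Wt1* (1.75 ± 0.804), *Bnc1* (1.32 ± 0.389) and *Muc16* (0.717 ± 0.439 CPM per kilobase) were lowest, each overlapping with the next. In BLM+HBO lungs *Msln* was still first at 51.7 ± 40.5 CPM per kilobase (SD, n = 3) and *Muc16* last at 0.358 ± 0.310. The mean of *Gpm6a* (23.5 ± 9.61) stood above that of *Upk1b* (20.1 ± 6.60), with overlapping ranges. In single mice, *Gpm6a* was above *Upk1b* in only 1 of 3.

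*Msln* encodes mesothelin, a glycoprotein held to the cell surface by a lipid anchor. It lies on the minus strand of chromosome 17 at 25748613 to 25754378 (GRCm38). Its level was 433, 279, 501 and 272 CPM in BLM mice 1 to 4 and 116, 298 and 61.2 CPM in BLM+HBO mice 1 to 3. BLM+HBO 1 and 3 lay below all BLM mice, and BLM+HBO 2 lay among them. The BLM mean was 371 ± 114 CPM (SD, n = 4), and the BLM+HBO mean was 158 ± 124 CPM (SD, n = 3). *Msln* was 2.35-fold lower in BLM+HBO (log2 fold change -1.23, 95% interval -2.28 to -0.18, SE 0.47, edgeR adjusted *P* = 0.438).

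*Muc16* encodes a very large membrane mucin, known as CA125, which binds mesothelin. The gene spans 18495455 to 18674530 on the minus strand of chromosome 9. The BLM mice had 35.9, 9.75, 15.2 and 14.8 CPM, and the BLM+HBO mice had 7.29, 18.5 and 2.55 CPM. As for *Msln*, the lower values came from BLM+HBO 1 and 3, although BLM 1 also stood above the other BLM mice. The log2 fold change of -1.01 (95% interval -2.38 to 0.37) did not pass the test (SE 0.61, edgeR adjusted *P* = 0.582).

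*Wt1* encodes a zinc finger transcription factor that is needed for the development of mesothelium, kidney and gonads. It lies on the plus strand of chromosome 2 at 105126529 to 105173616. Its level was 18.1, 9.19, 9.28 and 6.79 CPM in the BLM mice and 2.56, 8.47 and 1.69 CPM in the BLM+HBO mice, where BLM+HBO 1 and 3 rested on 48 and 45 reads. BLM+HBO 1 and 3 lay below every BLM mouse, and BLM+HBO 2 lay between BLM 4 and BLM 2. *Wt1* was 2.57-fold lower in BLM+HBO (log2 fold change -1.36, 95% interval -2.58 to -0.14, SE 0.54, edgeR adjusted *P* = 0.442). The antisense gene *Wt1os* lies 18 bases away and had between 0 and 10 reads in each library.

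*Bnc1* encodes basonuclin 1, a zinc finger protein of keratinocytes, germ cells and mesothelium. It lies on the minus strand of chromosome 7 at 81966653 to 81992307. The BLM mice had 8.31, 3.89, 5.93 and 6.48 CPM and the BLM+HBO mice had 4.47, 9.33 and 0.825 CPM, the last from 22 reads. BLM+HBO 2 was the highest and BLM+HBO 3 the lowest of the 7 mice. The mean log2 fold change was -0.34 (95% interval -1.70 to 1.02, edgeR adjusted *P* = 0.872), within the spread between mice. In GENCODE vM21, *Bnc1* shares 98 exonic bases with a pseudogene on the other strand, and counting without strand leaves out reads that overlap both.

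The uroplakins are membrane proteins best known from the bladder lining, and *Upk1b* (a tetraspanin) and *Upk3b* are also expressed by mesothelium. *Upk1b* lies on the minus strand of chromosome 16 at 38773184 to 38800328. Its level was 75.9, 55.5, 62.3 and 52.7 CPM in the BLM mice and 41.1, 56.3 and 28.8 CPM in the BLM+HBO mice. BLM+HBO 1 and 3 were again the 2 lowest mice. The log2 fold change of -0.55 (95% interval -1.04 to -0.07, SE 0.22) passed an unadjusted *P* limit of 0.05 (edgeR adjusted *P* = 0.440), but at 1.46-fold it stayed under the fold threshold.

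*Upk3b*, on the plus strand of chromosome 5 at 136038496 to 136046487, had 88.7, 51.0, 121 and 86.6 CPM in the BLM mice. The BLM+HBO mice had 73.6, 93.2 and 29.6 CPM. BLM+HBO 3 alone lay below the BLM range. The log2 fold change was -0.41 (95% interval -1.24 to 0.42, edgeR adjusted *P* = 0.719).

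*Lrrn4* encodes a membrane protein with leucine-rich repeats, and lies on the minus strand of chromosome 2 at 132868305 to 132880891. It was measured at 43.3, 26.7, 22.1 and 28.4 CPM in the BLM mice and at 21.0, 31.8 and 4.42 CPM in the BLM+HBO mice. BLM+HBO 3 stood at 14.7% of the BLM mean, BLM+HBO 1 just below the BLM range and BLM+HBO 2 inside it. The log2 fold change was -0.66 (95% interval -1.81 to 0.48, edgeR adjusted *P* = 0.658).

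*Gpm6a* encodes a membrane glycoprotein of the proteolipid family that is also abundant in neurons, on the plus strand of chromosome 8 at 54954843 to 55060871. The BLM mice lay close together, at 75.6, 89.0, 82.6 and 80.6 CPM, with a coefficient of variation of 6.77%. The BLM+HBO mice had 103, 81.3 and 42.1 CPM, so that BLM+HBO 1 was above and BLM+HBO 3 below all BLM mice. The log2 fold change was -0.12 (95% interval -0.67 to 0.43, edgeR adjusted *P* = 0.895).

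*Nkain4* encodes a membrane protein of a family that binds the sodium pump, on the minus strand of chromosome 2 at 180934772 to 180954699. It varied least, by 1.69-fold from the lowest to the highest mouse, with 22.3, 20.1, 30.4 and 27.4 CPM in BLM and 25.3, 24.4 and 18.0 CPM in BLM+HBO. Its log2 fold change was -0.15 (95% interval -0.56 to 0.26, edgeR adjusted *P* = 0.798). *Nkain4* shares 55 exonic bases with an antisense gene, *Gm14341*.

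*Rspo1* encodes R-spondin 1, a secreted protein that strengthens Wnt signals, on the plus strand of chromosome 4 at 124986430 to 125009099. Its level was 17.5, 11.9, 23.6 and 22.4 CPM in the BLM mice and 16.2, 22.8 and 12.2 CPM in the BLM+HBO mice. The groups overlapped fully, and BLM 2 was the lowest mouse, the single gene of the 10 for which this was not BLM+HBO 3. The log2 fold change was -0.14 (95% interval -0.75 to 0.46, edgeR adjusted *P* = 0.883).

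**Figure D2:**
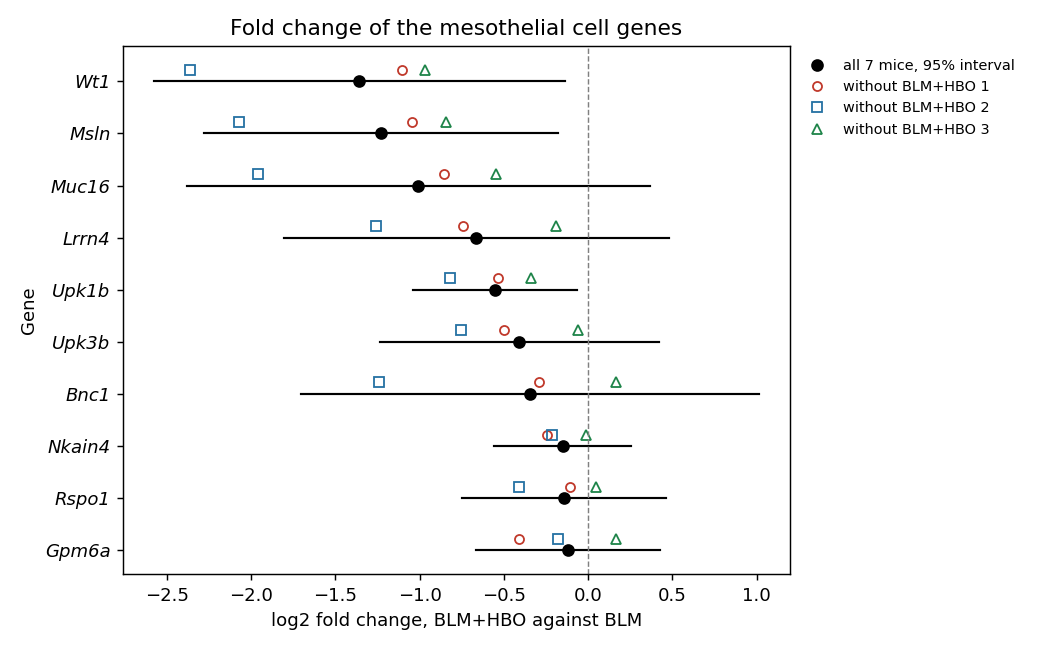
Log2 fold change of each gene, BLM+HBO against BLM, with the 95% interval from all 7 mice (black) and the value without each BLM+HBO mouse in turn (open symbols). Leaving out BLM+HBO 2 moved *Wt1* to -2.36 and *Msln* to -2.07, and leaving out BLM+HBO 3 moved *Bnc1*, *Gpm6a* and *Rspo1* to the other side of 0.

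The 3 BLM+HBO mice did not behave alike. Relative to the BLM mean, the median log2 difference of the 10 genes was -0.44 in BLM+HBO 1, 0.06 in BLM+HBO 2 and -2.00 in BLM+HBO 3, while the BLM mice lay between -0.33 and 0.29. BLM+HBO 3 was the lowest of the 7 mice in 9 of the 10 genes, against 15.3% of all genes. It was below all BLM mice in the same 9, BLM+HBO 1 in 5 and BLM+HBO 2 in 0. Over all genes tested, 24.8%, 25.7% and 15.7% were below all BLM mice in BLM+HBO 3, 1 and 2. The likeness of BLM+HBO 2 to the BLM mice was not particular to the 10 genes. Over genes with at least 20 reads in a pair of libraries, a chi-square per gene was computed, which is larger for less alike libraries. For BLM+HBO 2 it was 13.0 to 34.3 against the BLM mice, but 64.3 and 57.5 against BLM+HBO 1 and 3. The 5 genes low in BLM+HBO 1 were *Msln*, *Muc16*, *Upk1b*, *Wt1* and *Lrrn4*. *Wt1* in BLM+HBO 1 was at 23.6% and *Msln* at 31.2% of the BLM mean, whereas *Nkain4* was at 101% and *Gpm6a* at 126%. In BLM+HBO 3, *Bnc1*, *Muc16*, *Lrrn4*, *Wt1* and *Msln* were at 13.4% to 16.5% of the BLM mean, *Upk3b* at 34.1%, and *Upk1b*, *Gpm6a*, *Rspo1* and *Nkain4* at 46.8% to 71.8%.

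The calls depended on single mice. Without BLM+HBO 2, edgeR called 5 genes lower (*Msln*, *Muc16*, *Upk1b*, *Wt1* and *Lrrn4*), against 5.41% of all genes, and *Msln* and *Wt1* passed an adjusted *P* of 0.05, the lowest being 0.0308. In the same 5 genes the remaining mice did not overlap, beside 13.2% of all genes lower without overlap in these mice, a choice of mice made after the data were seen. Without BLM+HBO 3, without BLM+HBO 1 or without BLM 1, 0 of the 10 passed, and without BLM 3 only *Wt1* did. *Msln* kept a negative log2 fold change under all 16 alternative settings (-2.07 to -0.84), as did *Wt1* (-2.36 to -0.97). Without BLM+HBO 2 the log2 fold changes of *Muc16*, *Lrrn4*, *Upk1b*, *Upk3b* and *Nkain4* were -1.96, -1.26, -0.82, -0.75 and -0.21. Without BLM+HBO 3 they were -0.55, -0.19, -0.34, -0.06 and -0.02 in the same order. Leaving out BLM mice also moved *Muc16* (-0.50 without BLM 1), *Lrrn4* (-0.44 without BLM 1), *Upk3b* (-0.21 without BLM 3) and *Nkain4* (-0.04 without BLM 3).

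**Figure D3:**
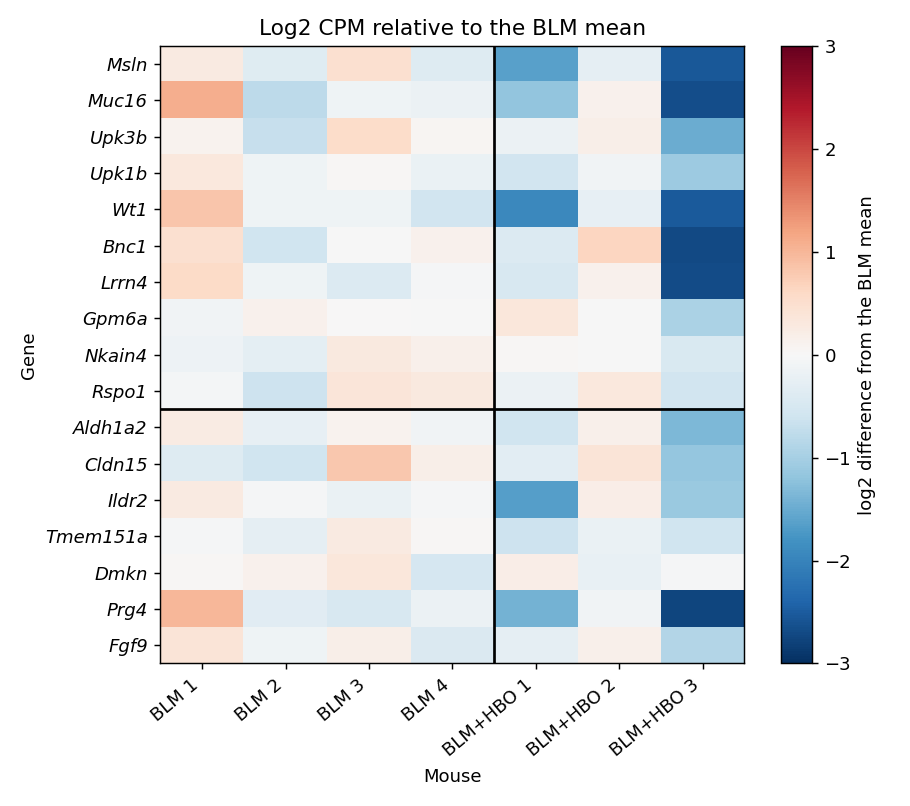
Log2 difference of each mouse (columns) from the BLM mean, for the 10 genes (above the line) and for 7 other mesothelial genes not shared with other lung cells (below it), with blue for lower and red for higher. BLM+HBO 3 has the darkest blue column, while BLM+HBO 2 is pale in most rows.

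A second list of 20 genes that mesothelium is known to express was examined beside the 10. It holds 9 genes with few other sources in the lung and 11, such as the keratins, that other lung cells also express. Of the 18 that could be tested, 16 had a negative log2 fold change and the median was -0.34. Of the 9, 7 were tested, 7 were negative and their median was -0.48. *Calb2* and *Itln1* had too few reads to test, with at most 6 and 12 reads in a library. *Aldh1a2*, which encodes an enzyme that makes retinoic acid, had 38.8, 27.5, 34.8 and 30.1 CPM in BLM and 21.6, 35.9 and 12.8 CPM in BLM+HBO, with the same 2 mice lowest (log2 fold change -0.49, edgeR adjusted *P* = 0.573). *Cldn15*, a tight junction gene, had a log2 fold change of -0.35 (edgeR adjusted *P* = 0.788).

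Only *Slpi* of the 18 tested genes of this list passed the DEG thresholds, where 6.29% of all genes passed them in either direction and 2.89% were called lower. It encodes a secreted protease inhibitor that airway epithelium also makes, and had 170, 132, 130 and 62.0 CPM in BLM and 42.9, 43.2 and 52.8 CPM in BLM+HBO. All BLM+HBO mice, BLM+HBO 2 included, lay below all BLM mice, unlike any of the 10 genes. *Slpi* was lower by a log2 fold change of -1.41 (SE 0.28, edgeR adjusted *P* = 0.423). *Tmem151a* (-0.48, edgeR adjusted *P* = 0.423) and *Pdpn*, which encodes podoplanin and is also strong in alveolar type 1 cells (-0.31, edgeR adjusted *P* = 0.449), were under the fold threshold.

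Relatives of the 10 genes did not move in 1 direction, with 6 negative and 6 positive among 12 tested of 17 listed. Of the 12, 3 were called lower and 1 higher, against 2.89% and 3.4% of all genes. *Mslnl*, the neighbour of *Msln* at 282 bases, was called lower on 3 to 16 reads a library, at 0.494 to 0.881 CPM in BLM and 0.160 to 0.450 CPM in BLM+HBO (log2 fold change -1.29, edgeR adjusted *P* = 0.440). *Lrrn2* (log2 fold change -1.13, edgeR adjusted *P* = 0.441) and *Nkain1* (-0.95, edgeR adjusted *P* = 0.426) were the other genes called lower. *Lrrn3* was called higher (0.89, edgeR adjusted *P* = 0.426). Its BLM+HBO 1 value of 15.7 CPM lay above the other 6 mice.

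R-spondins bind LGR receptors and keep the ubiquitin ligases RNF43 and ZNRF3 from removing Wnt receptors. Of 10 tested genes of this pathway outside *Rspo1*, 4 were negative and 6 positive, with a median log2 fold change of 0.02. *Rspo3* was called lower, at 5.34, 4.28, 2.63 and 2.95 CPM in BLM and 1.49, 2.39 and 1.24 CPM in BLM+HBO, with no overlap (log2 fold change -1.16, edgeR adjusted *P* = 0.423). Over all genes tested, 2.89% were called lower and 4.72% were lower without overlap. *Rnf43* had a log2 fold change of 0.41 (edgeR adjusted *P* = 0.452), under the fold threshold. The receptor gene *Lgr4* (log2 fold change -0.00) and the Wnt target *Axin2* (0.01) lay close to 0.

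Markers of other tissues and cells were summed in each mouse. The libraries carried strong lung signals, with *Sftpc*, the surfactant gene of alveolar type 2 cells, at 4549 to 9381 CPM in BLM. In BLM+HBO 1, 2 and 3 *Sftpc* was at 14820, 6535 and 16260 CPM. *Ager*, of alveolar type 1 cells, was at 1545 to 2677 CPM over the 7 mice. All 5 alveolar type 2 genes were positive and 0 were called, against 6.29% of all genes. Their sum was 7105 to 13070 CPM in BLM and 19290, 9188 and 22530 CPM in BLM+HBO 1, 2 and 3. The part of these cells in the mesothelial values was not tested. Of 14 tested heart muscle genes, 14 were positive and 12 were called higher, against 3.4% of all genes, with *Myh6* at 12.3 to 34.9 CPM in BLM and at 232, 188 and 34.5 CPM in BLM+HBO. *Tnnt2*, *Tnni3* and *Myl7* were called higher at log2 fold changes of 1.14, 1.62 and 1.70 (edgeR adjusted *P* = 0.447, 0.423 and 0.423). The summed level of the heart muscle genes was 74.8 to 211 CPM in BLM and 767, 598 and 175 CPM in BLM+HBO 1, 2 and 3. The 10 mesothelial genes summed to 556 to 873 CPM in BLM and to 410, 644 and 201 CPM in BLM+HBO 1, 2 and 3. *Msln* alone gave 45.5% to 57.4% of this sum in BLM and 28.2%, 46.3% and 30.4% in BLM+HBO 1, 2 and 3, so the sum follows *Msln* closely. The median CPM of the 10 genes was 23.4 to 39.6 in BLM and 23.2, 28.1 and 15.1 in BLM+HBO 1, 2 and 3. By this median BLM+HBO 1 lay only just below the lowest BLM mouse. BLM+HBO 1 had the highest heart muscle sum and a mesothelial sum below the BLM range, BLM+HBO 2 had a heart muscle sum above and a mesothelial sum inside the BLM range, and BLM+HBO 3 had a heart muscle sum inside the BLM range and the lowest mesothelial sum. The part of heart muscle in the mesothelial values was not tested.

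Markers of activated fibroblasts, which lay down matrix in the injured lung, were lowest in the same 2 mice as the mesothelial sum. All 8 were negative and 5 were called lower, against 2.89% of all genes, with summed levels of 8679 to 13260 CPM in BLM and 2289, 9149 and 4517 CPM in BLM+HBO 1, 2 and 3. The order of the 2 lists differed, since fibroblast markers were lowest in BLM+HBO 1 and mesothelial genes in BLM+HBO 3. *Cthrc1*, secreted by matrix-producing fibroblasts, had 46.9, 24.9, 21.4 and 17.8 CPM in BLM and 7.83, 20.5 and 8.81 CPM in BLM+HBO (log2 fold change -1.16, edgeR adjusted *P* = 0.423). *Postn*, which encodes periostin, had a log2 fold change of -0.45 (edgeR adjusted *P* = 0.454). The part of these cells in the mesothelial values was not tested.

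Basal and squamous epithelial genes, which mark epithelia that can also express *Bnc1*, summed to 8.11 to 13.3 CPM in BLM and to 5.06, 7.23 and 3.67 CPM in BLM+HBO 1, 2 and 3. Of 5 tested, 5 were negative and 3 were called lower (2.89% of all genes), among them *Krt5* (log2 fold change -2.27, edgeR adjusted *P* = 0.438) and *Trp63* (-0.78, edgeR adjusted *P* = 0.442). *Krt5* rested on 4, 32, 37 and 27 reads in BLM and 0, 10 and 9 reads in BLM+HBO, and its groups overlapped. *Krt13* had at most 9 reads in a library. Their part in the mesothelial values was not tested. *Gata6*, the factor of pleural cavity macrophages that mesothelium and smooth muscle also express, had a log2 fold change of -0.05, and the smooth muscle gene *Myh11* had 0.07. Both lists split. Of 3 tested macrophage genes, 2 were negative and 1 was positive (-0.51 to 0.35). Of 5 smooth muscle genes, 2 were negative and 3 positive (-0.43 to 0.24). In both lists 0 genes were called, where 6.29% of all genes were called in either direction. Thymocyte genes *Rag1*, *Dntt* and *Ptcra* had at most 8 reads in a library and the adipocyte gene *Adipoq* at most 0.787 CPM, while *Plin1* had at most 14 reads. *Ckm*, of striated muscle, was called higher (2.71, edgeR adjusted *P* = 0.423) and *Acta1* lower (-1.01, edgeR adjusted *P* = 0.438), both at or under 9.21 CPM, and *Myh4* had at most 1 read. Club cell genes split, with 3 positive and 2 negative of 5 and 2 called higher, against 3.4% of all genes. *Scgb1a1* was called higher (0.73, edgeR adjusted *P* = 0.461), whereas *Scgb3a1* (-1.13, edgeR adjusted *P* = 0.471) and *Bpifa1* (-1.18, edgeR adjusted *P* = 0.541) were negative and were not called. Resting fibroblast genes also split, with 3 positive and 2 negative of 5 and 2 called higher, against the same 3.4%. *Tcf21* was called higher (0.70, edgeR adjusted *P* = 0.423) and *Npnt* had 0.43 (edgeR adjusted *P* = 0.499). *Pdgfra* had -0.52 (edgeR adjusted *P* = 0.447) and passed the unadjusted limit alone, and *Limch1* had -0.05 (edgeR adjusted *P* = 0.932).

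**Figure D4:**
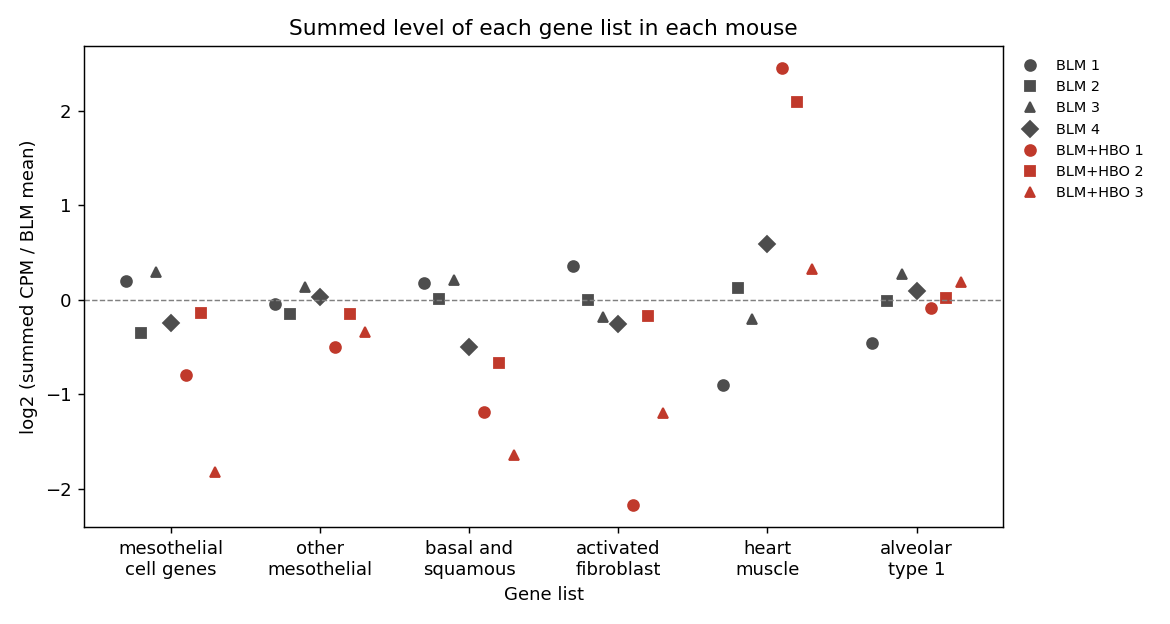
Summed CPM of 6 gene lists in each mouse, as log2 of the ratio to the BLM mean, with grey for BLM and red for BLM+HBO mice. The mesothelial sum is lowest in BLM+HBO 3 and the activated fibroblast sum in BLM+HBO 1, while the heart muscle sum is high in BLM+HBO 1 and 2.

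The genes whose pattern over the 7 mice was most like the mean of the 10 were *Ly86* (Pearson r = 0.978), *Aldh1a2* (0.977), *Clec4d* (0.973), *Tnfrsf26* (0.971), *Eif4e* (0.968), *Cwh43* (0.968), *Ptprq* (0.963), *Arl6ip5* (0.963), *Rnf2* (0.961) and *Txnrd1* (0.961). Likeness was measured between log2 CPM and the mean z-score of the 10 genes, over 17455 other genes. With 7 points, 1 of which lay far from the rest, 96 genes exceeded an r of 0.9, and without BLM+HBO 3 the r of these 10 ranged from 0.723 to 0.960. *Aldh1a2* was the one gene among them that also stood on the second mesothelial list. Its r was 0.937 without BLM+HBO 3, which placed it at rank 71. The 7 tested genes of that list with few other sources in the lung had r from -0.04 to 0.977 over the 7 mice. Among the 10 genes most alike, the size of change still differed. *Arl6ip5* lay between 144 and 157 CPM in BLM and at 118 CPM in BLM+HBO 3. *Ptprq* lay between 1.18 and 2.75 CPM in BLM and at 0.0375 CPM in BLM+HBO 3, which is the level of 1 read in that library.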

How the data were processed

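RNA from lungs of 4 BLM and 3 BLM+HBO mice was sequenced. The authors trimmed reads with Trim Galore, aligned them with Hisat2 to GRCm38, and deposited raw read counts from featureCounts at default settings. These ignore strand and drop multi-mapped reads and reads shared by overlapping genes. The annotation release was not given in the sources used here. Symbols came from GENCODE vM21, matched by identifier for 55141 of 55401 genes, and gene coordinates are those of the deposited table. Counts summed to 18157161 to 26365969 per mouse. Libraries of 1 group differed beyond sampling noise (chi-square of at least 22.1 per gene). Each library was taken as 1 mouse and 1 replicate.

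The filterByExpr filter (10 reads as the count minimum, 15 as the total minimum) left 17465 genes, which were normalized by TMM (factors 0.964 to 1.036) and tested with edgeR 4.0.16 under R 4.3.3 (quasi-likelihood test, 95% intervals from its fit), with BLM as reference. Adjusted *P* values are Benjamini-Hochberg over all genes tested. Log2 CPM used a prior count of 2. DESeq2 1.42.0, the tool of the methods, and limma-trend (limma 3.58.1) were alternatives, as were other scalings and filters, a replicate block and leaving out each mouse. Scripts were tested on simulated data with known changed genes. There, at the adjusted limit, 22.9% of DESeq2 calls were false, against 7.76% for edgeR and 7.05% for limma. DESeq2 recovered 70.7% of the 2-fold changes, against 56% for edgeR and 54.3% for limma. The 10 genes, the other lists and the tests were chosen with earlier results of these data known. Named genes were the 10, the defining genes of each list, up to 5 genes at an unadjusted *P* below 0.05 of the second mesothelial, relatives and R-spondin lists, and the 10 genes most like the set. *Lgr4*, *Axin2*, *Scgb3a1*, *Bpifa1*, *Pdgfra* and *Limch1* were named after their values were seen.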

Additional observations from a re-analysis of the deposited data

How the results depend on the processing

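All 10 genes kept a negative log2 fold change under the other tools, scalings and filters tried and with the block. *Bnc1*, *Gpm6a* and *Rspo1* turned positive without BLM+HBO 3, at 0.17, 0.16 and 0.049 on the log2 scale. When 1 mouse was left out, *Bnc1* ranged from -1.24 to 0.17, *Gpm6a* from -0.41 to 0.16 and *Rspo1* from -0.41 to 0.049. The DEG count of all genes, 1098, became 1940 without the filter on low counts, 319 at a *P* limit of 0.01 and 509 at a fold change above 2, and ranged from 659 to 1914 when 1 mouse was left out. Genes at an adjusted *P* below 0.05, 0 by edgeR, were 128 by DESeq2, 387 without the filter and 0 to 267 when 1 mouse was left out. Of the 10 genes, 4 passed the DEG thresholds without the filter (2.62% of all genes called lower there), 0 at a *P* limit of 0.01 and 0 to 5 when 1 mouse was left out (1.76% to 5.41% of all genes called lower). At an adjusted *P* below 0.05 there was 1 without the filter and 0 to 2 when 1 mouse was left out. At an unadjusted *P* below 0.05, a count added after the data were seen, there were 5 without the filter and 0 to 5 when 1 mouse was left out. Of all genes, 4.46% were lower at this limit without the filter, and 2.89% to 8.46% when 1 mouse was left out. The second mesothelial list of 20 genes, also counted after the data were seen, had 3 DEGs in either direction by limma and 4 without the filter. It had 2 with the replicate block and 1 to 7 when 1 mouse was left out. Over all genes, DEGs in either direction were 1167 of 17465 by limma, 1940 of 32896 without the filter and 1258 of 17465 with the block. The 7 came from leaving out BLM+HBO 2, where 1914 of 17879 genes were DEGs. Same-numbered mice correlated at -0.01, -0.07 and 0.16, and differently numbered mice at -0.18 to 0.17. Replicate numbers thus showed no clear pairing of the mice, but so few pairs cannot exclude it. The replicate block gave 1258 DEGs, with *Upk1b* called beside *Msln* and *Wt1*. The cause of these shifts was not tested. Depth limits *Bnc1*, *Wt1* and *Muc16* most, with 22, 45 and 68 reads in BLM+HBO 3, the deepest library.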

Other observations

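Ratios within a library do not depend on its scaling, and were computed after the values above were seen. The ratio of *Msln* to *Upk3b* CPM was 4.89, 5.48, 4.15 and 3.15 in BLM mice 1 to 4 and 1.57, 3.20 and 2.07 in BLM+HBO mice 1 to 3. BLM+HBO 1 and 3 lay below all BLM mice, and BLM+HBO 2 lay just above the lowest of them. *Msln* gave 45.5% to 57.4% of the summed CPM of the 10 genes in BLM and 28.2%, 46.3% and 30.4% in BLM+HBO 1, 2 and 3. The ratio of *Nkain4* to *Upk3b* went the other way in BLM+HBO 3, at 0.607 against 0.251 to 0.393 in BLM. BLM+HBO 1 had 0.344 and BLM+HBO 2 had 0.261, both within the BLM range.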
